A study of Mus musculus with 24 samples.

Results

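The genes described here are those that carried both H3K4me3, the histone mark of active and poised promoters, and dense H3K27me3, the repressive mark of Polycomb complexes, in sorted basal cells of the mouse mammary gland. For each library the read count of a gene was divided by the library total and scaled to counts per 1e6 (CPM), and the values were averaged over the 8 libraries of a mark. A gene on an autosome was taken where its mean H3K4me3 was at least 20 CPM and its mean H3K27me3 was at least 2 CPM per kb of gene length. The rule took 860 genes of the 23916 autosomal genes with coordinates, which is 3.60%, out of 27080 genes counted. They are called bivalent genes below. Since the genes were chosen by their measured levels of both marks, those levels are given as a description. Only differences between subpopulations were tested. The rule used the mean over all 8 libraries, so a gene could pass through the subpopulation where it was high. At such a gene the difference is not independent of the choice.

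The cells came from the mammary glands of C57BL/6 females, with no treatment, and were isolated directly by flow cytometry. Lgr5, a receptor that strengthens Wnt signalling, and Tspan8, a membrane tetraspanin, divided them into 4 subpopulations, namely the double-positive Lgr5+Tspan8hi cells, the double-negative Lgr5-Tspan8- cells and those with one of the markers, Lgr5+Tspan8- and Lgr5-Tspan8hi. Chromatin immunoprecipitation followed by sequencing gave 2 libraries per mark in each subpopulation, 16 libraries in all, and the 8 input samples were not analysed here. The labels give no ages and do not say that replicates came from separate animals, so p-values measure the spread between these libraries, which may be technical. They number the sorted samples 1 to 8, and each number carries 1 library of each mark.

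Bivalent promoters were first described in embryonic stem cells, where many genes of later development carry both marks and are transcribed little. H3K4me3 is deposited by Trithorax-related methyltransferases that bind unmethylated CpG-rich DNA, and H3K27me3 by Polycomb repressive complex PRC2, which is also drawn to CpG islands. In differentiated tissues many of these promoters keep only one of the marks. Each library here pools many cells, so both marks on the same alleles and each mark in different cells of the sorted pool cannot be told apart.

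Of the bivalent genes with a RefSeq promoter, 56% had a CpG-rich one by the criterion given below. Shown first are sequences of BB283400, Prdm16os and Adra2a, among the genes of best standing in both marks once predicted genes are left out. Then follow those of Id3 and Fzd10, which had the largest Tspan8 differences in the ratio of marks among the 4 genes called for it. Each is the stretch before the gene start, 5′ to 3′ on the plus strand of GRCm38.p6 (the same assembly as mm10), from RefSeq, with every CpG in capitals. Bases within another gene are left out, and Pou3f1, Tbx2 and Plag1 are named only.
BB283400: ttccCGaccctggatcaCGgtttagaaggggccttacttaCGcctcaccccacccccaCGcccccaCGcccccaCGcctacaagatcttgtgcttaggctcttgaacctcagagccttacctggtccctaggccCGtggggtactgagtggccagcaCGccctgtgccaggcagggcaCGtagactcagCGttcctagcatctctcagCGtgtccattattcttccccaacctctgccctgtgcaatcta
Prdm16os: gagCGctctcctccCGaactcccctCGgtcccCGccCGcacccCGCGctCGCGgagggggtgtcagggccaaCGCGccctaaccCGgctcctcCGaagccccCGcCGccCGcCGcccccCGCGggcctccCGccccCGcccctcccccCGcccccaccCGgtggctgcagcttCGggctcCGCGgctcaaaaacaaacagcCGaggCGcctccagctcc
Adra2a: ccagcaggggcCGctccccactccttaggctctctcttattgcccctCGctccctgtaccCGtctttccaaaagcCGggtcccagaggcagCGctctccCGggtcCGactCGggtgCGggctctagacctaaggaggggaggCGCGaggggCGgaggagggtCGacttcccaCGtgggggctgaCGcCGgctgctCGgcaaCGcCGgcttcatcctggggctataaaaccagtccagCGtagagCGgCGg
Id3: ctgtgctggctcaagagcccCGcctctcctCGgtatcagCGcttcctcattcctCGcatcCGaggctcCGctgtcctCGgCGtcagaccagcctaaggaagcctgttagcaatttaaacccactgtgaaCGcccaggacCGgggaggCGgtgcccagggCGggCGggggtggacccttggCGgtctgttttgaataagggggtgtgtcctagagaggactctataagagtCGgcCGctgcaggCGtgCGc
Fzd10: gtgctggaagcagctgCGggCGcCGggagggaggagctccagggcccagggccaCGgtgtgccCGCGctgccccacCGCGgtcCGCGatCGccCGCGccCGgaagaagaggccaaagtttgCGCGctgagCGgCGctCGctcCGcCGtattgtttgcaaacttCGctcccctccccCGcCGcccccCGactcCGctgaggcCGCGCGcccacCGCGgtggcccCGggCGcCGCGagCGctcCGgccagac
BB283400, a long non-coding RNA gene, was read at chr6:30176373-30176622 and holds 11 CpG in 250 bases at 60% GC. For Prdm16os, a long non-coding RNA gene that starts beside Prdm16, the stretch chr4:154637361-154637579 holds 28 CpG in 219 bases at 78.5% GC. Adra2a encodes the alpha-2A adrenergic receptor, and chr19:54045009-54045258 holds 22 CpG at 67.6% GC. For Id3, which encodes an inhibitor of basic helix-loop-helix (bHLH) factors, chr4:136143572-136143821 holds 18 CpG at 62.8% GC. For Fzd10, which encodes a Frizzled receptor of Wnt ligands, chr5:128600856-128601105 holds 37 CpG at 76.4% GC. The observed number of CpG over that expected from base composition ran from 0.526 in BB283400 to 1.02 in Fzd10.

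Over windows of 300 bases (250 before the start and 50 after it), 582 of the 860 bivalent genes had a RefSeq promoter, beside 17537 autosomal genes in all. Their median was 21 CpG per window at 63.7% GC. Genes with H3K4me3 but without dense H3K27me3 had a median of 22 CpG at 62.0% GC, and genes with dense H3K27me3 but without H3K4me3 had 4 CpG at 50.3% GC. A CpG-rich window, taken as GC above 55% with an observed to expected CpG ratio above 0.65, was found at 326 bivalent genes (56%), at 62.1% of the H3K4me3-only genes, at 9.83% of the H3K27me3-only genes and at 38.6% of all autosomal genes. By this description, made with no test, bivalent promoters were nearer to H3K4me3-only promoters than to H3K27me3-only promoters. On either strand the motif TATAAA was present in 50 bivalent windows (8.59%, against 13.1% of all), GGGCGG in 381 (65.5%, against 46.5%) and CCAAT in 201 (34.5%, against 38.9%). A match says only that these letters are in the window.

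The remaining autosomal genes divided into 12245 with H3K4me3 only (51.2%), 2795 with dense H3K27me3 only (11.7%) and 8016 with neither (33.5%). Median H3K4me3 of the bivalent genes was 36.3 CPM (interquartile range 26.6 to 51.0), below the 64.9 CPM of the H3K4me3-only genes and above the 2.05 CPM of the H3K27me3-only genes. Median H3K27me3 was 3.56 CPM per kb (2.50 to 6.23), against 2.90 in the H3K27me3-only genes and 0.284 in the H3K4me3-only genes. The map of both marks over all genes shows where they lie. Their median length of 10.4 kb lay between 22.6 kb (H3K4me3 only) and 4.06 kb (H3K27me3 only), and 715 of them were protein-coding, 86 long non-coding RNA and 33 microRNA genes. They made up 2.28% of the genes on chromosome 10, the lowest share, and 5.24% on chromosome 19, the highest.

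**Figure D1:**
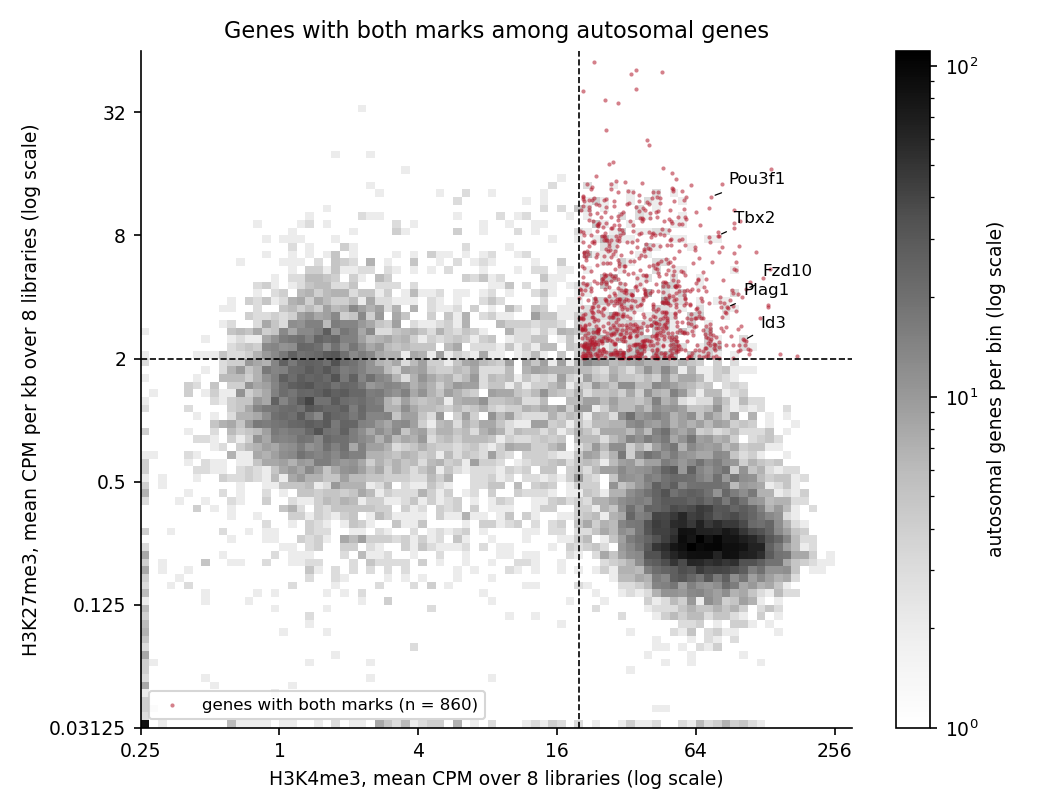
Mean H3K4me3 (CPM, log scale, x axis) against mean H3K27me3 (CPM per kb, log scale, y axis) over the 8 libraries of each mark for 23916 autosomal genes, with the thresholds of 20 CPM and 2 CPM per kb as lines and genes below the axis limits drawn at the edge. The 860 bivalent genes fill the upper right field, which is thinly filled beside the 12245 H3K4me3-only genes at the lower right.

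The thresholds cut through a continuum of values. Just inside the H3K4me3 threshold were Cfap58 and D930007P13Rik (20 CPM each, rounded), and just outside it Slc26a10 and Wnt3 (19.9 CPM each). The genes nearest the H3K27me3 threshold were Gm10857 and H2bc8 inside and Tmem150cos and Cpxm1 outside, and all 4 rounded to 2.00 CPM per kb. Both thresholds were passed in the mean of Lgr5+Tspan8hi by 683 of the 860, in Lgr5+Tspan8- by 735, in Lgr5-Tspan8hi by 735 and in Lgr5-Tspan8- by 799. They were passed in each of the 4 subpopulation means by 543 genes (63.1%), and in every one of the 16 libraries taken singly by 390 (45.3%). At the higher thresholds of 40 CPM and 4 CPM per kb, 149 genes remained.

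The region that was counted for each gene is not given in the sources used here, and the counts bear on it. Of the bivalent genes, 198 (23%) start within 2 kb of another counted gene. For each of these genes the larger count was divided by the smaller, between the gene and its neighbour. For H3K4me3 this had a median of 1.02, with 147 of the genes (74.2%) within 10% of the neighbour. For H3K27me3 the median was 3.8, with 4 genes (2.02%) within 10%. Neighbours that are both bivalent can each be counted. Across the 860 genes, which are not independent, mean count and gene length had a Spearman's rho of -0.0712 for H3K4me3 and 0.913 for H3K27me3. H3K4me3 is therefore read as signal around the gene start, which neighbours can share, and H3K27me3 as signal over the gene body. Another gene is overlapped by 223 bivalent genes (25.9%), whose reads cannot be told apart, and 212 (24.7%) have another bivalent gene within 50 kb. Genes under 300 bp numbered 51.

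Genes were ranked by the lower of their percentile ranks in both marks among the bivalent genes. Predicted genes (Gm and Rik symbols) were left out, among them Gm9320, which stood first. The strongest of the others were BB283400, Pou3f1, Prdm16os, Adra2a, Foxc1, Msx1, Mir1903 and Sp5. BB283400 had means of 82.9 CPM of H3K4me3 and 14.3 CPM per kb of H3K27me3. Pou3f1, a POU homeobox factor of Schwann and neural cells, had 74.7 CPM and 12.4 CPM per kb. Prdm16os had 93.8 and 10.6, and its H3K4me3 cannot be told apart from that of Prdm16, a regulator of brown fat fate, whose start lies 220 bp away. Among the others, Adra2a had 72.8 and 10.9, the forkhead factor Foxc1 99.97 and 9.43, the homeobox factor Msx1 66.7 and 9.01, and Sp5, a zinc-finger factor induced by Wnt signals, 64.1 and 10.4. Mir1903 (93.9 and 8.69) shares its start with Nrp1, a semaphorin co-receptor with 1.25 CPM per kb of H3K27me3, and its own H3K27me3 rests on 0 to 7 reads per library. Apart from Mir1903, both marks were counted at these genes in every library. At Pou3f1, for example, H3K4me3 was 53.1 and 62.6 CPM for Lgr5+Tspan8hi, 72.2 and 74.0 for Lgr5+Tspan8-, 85.7 and 68.8 for Lgr5-Tspan8hi, and 83.4 and 97.5 for Lgr5-Tspan8-. H3K27me3 at Pou3f1 was 40.4 and 42.5 CPM, 36.1 and 35.3, 31.8 and 28.9, and 43.6 and 39.3 (subpopulations in that order). H3K4me3 was lowest in the double-positive libraries and H3K27me3 lowest in Lgr5-Tspan8hi, and no effect was called in either mark.

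Developmental transcription factors were the largest named group. In 9 lists of such factors (Hox, other homeobox, Pax, T-box, forkhead, Sox, Gata, Zic and Gli, and bHLH genes), 116 of 302 autosomal genes were bivalent (38.4%, against 3.60% of all autosomal genes), and 111 more had H3K27me3 only. These 116 were 13.5% of the bivalent genes, and 179 (20.8%) stood in any of the 26 lists. Bivalent shares ran from 15.4% of the Hox genes to 60% of the Gata genes. Of 111 homeobox genes outside the Hox clusters 50 were bivalent and 42 had H3K27me3 only, whereas of 39 Hox genes, which set position along the body axis, 6 were bivalent (Hoxa4, Hoxb1, Hoxb5, Hoxc5, Hoxd1 and Hoxd8) and 29 had H3K27me3 only. Of 9 Pax genes 2 were bivalent, Pax2 (38.8 CPM of H3K4me3, 4.80 CPM per kb of H3K27me3) and Pax9 (29.8 and 5.84), and the other 7 had H3K27me3 only. Of 15 T-box genes 6 were bivalent, 7 had H3K27me3 only and 2 H3K4me3 only.

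Among 41 forkhead genes 16 were bivalent, including Foxf1 (73.0 CPM of H3K4me3, 7.83 CPM per kb of H3K27me3), a factor of mesoderm that shares its start with the non-coding gene Fendrr. Of 18 Sox genes 8 were bivalent and 8 had H3K4me3 only. Sox21, a neural progenitor factor, had 56 CPM and 13.2 CPM per kb, and Sox18, an endothelial factor, 47.7 and 4.68. Of 5 Gata genes 3 were bivalent, among them the endoderm factor Gata6 (48.6 and 5.89) and the blood factor Gata2 (39.9 and 6.92). Of 54 bHLH genes 21 were bivalent, and the neural factors Bhlhe22 (57.0 and 12) and Neurog2 (56.8 and 10.8) stood highest. Of 10 Zic and Gli genes 4 were bivalent, including Zic5 with 39.2 CPM and 11.6 CPM per kb.

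**Figure D2:**
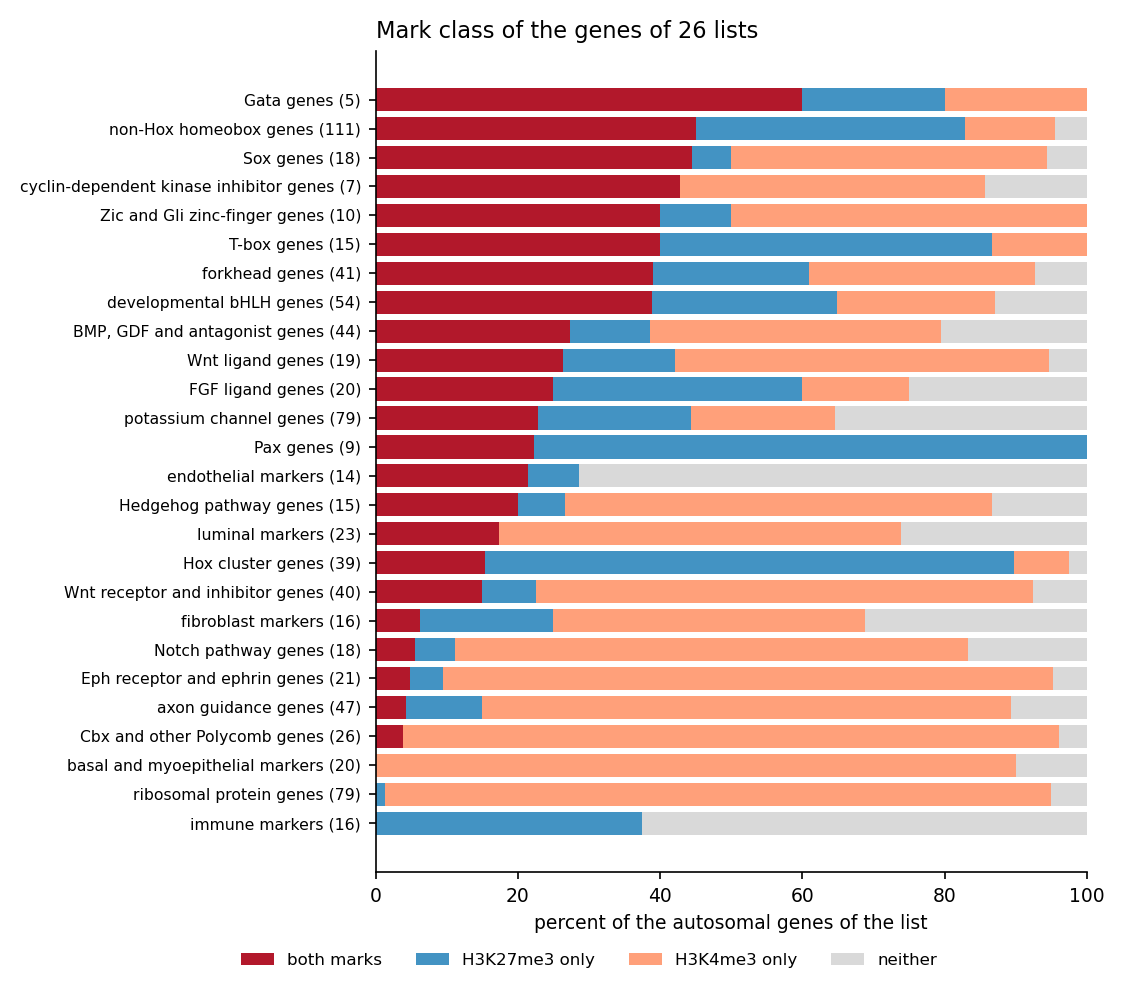
Percent of the autosomal genes of each list (x axis) that were bivalent, H3K4me3 only, H3K27me3 only or neither, with the number of genes beside each list. The bivalent share (labelled both marks) is above 38% in 7 of the 9 transcription factor lists, Pax and Hox genes being the exceptions, while the basal marker, immune marker and ribosomal protein lists hold no bivalent gene.

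Ligands and receptors followed. Of 19 Wnt ligand genes 5 were bivalent, including Wnt1 (32.0 CPM of H3K4me3, 11.4 CPM per kb of H3K27me3) and Wnt3a (28.1 and 4.17), and 10 had H3K4me3 only. The list of Wnt receptor and inhibitor genes, which also holds other Wnt pathway genes such as Lef1, had 6 of 40 bivalent. Among them were Fzd10, Lef1 and Notum, a secreted enzyme that inactivates Wnt proteins (38.9 and 5.10). Of 20 FGF genes 5 were bivalent (Fgf8 with 41.8 and 8.19, Fgf15 with 47.8 and 7.18), and 12 of 44 genes of the BMP, GDF and antagonist list, such as Gdf6 (51.3 and 6.18) and Nog, which encodes the BMP antagonist noggin (55.3 and 5.39). The Hedgehog list had 3 of 15, with the ligands Ihh (34.2 and 8.45) and Shh (25.4 and 8.83). Notch pathway, Eph and axon guidance genes were mostly H3K4me3 only. They had 1 of 18 (the endothelial Notch ligand Dll4, 82.1 and 3.58), 1 of 21 (Epha8, 25.7 and 4.38) and 2 of 47 (Sema7a, 47.7 and 5.15, and Sema6b, 37.4 and 2.32). Dll4 starts 413 bp from Gm14207 (80.3 and 8.35), and Shh starts 117 bp from 9530036O11Rik (44.9 and 0.915). The H3K4me3 at Dll4 and Shh may thus be shared with these neighbours.

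Potassium channels, which are neuronal and muscle genes for the most part, had 18 of 79 bivalent, and Kcna3 had 45.6 CPM of H3K4me3 and 8.59 CPM per kb of H3K27me3, Kcna1 47.6 and 6.14. Of 7 cyclin-dependent kinase inhibitor genes 3 were bivalent, the known Polycomb targets Cdkn2a (49.1 and 9.63) and Cdkn2b, and the imprinted Cdkn1c (36.5 and 3.65). Of 26 genes for Polycomb proteins 24 had H3K4me3 only, and the 1 bivalent gene was Bmi1 (96.0 and 5.93), a subunit of the PRC1 complex that represses Cdkn2a. None of 79 ribosomal protein genes was bivalent, and 74 had H3K4me3 only.

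The labelled cell type was checked with marker lists. Of 20 basal and myoepithelial markers 18 had H3K4me3 only and none was bivalent, with a median of 111 CPM per gene and a summed H3K4me3 of 1711 to 2102 CPM over the libraries. The exceptions, Trp63 (1.8 CPM) and Mylk (5.7 CPM), are defining genes of this layer that lay below the H3K4me3 threshold at the region counted. Of 23 luminal markers 4 were bivalent and 13 had H3K4me3 only. Clearly past both thresholds were Foxa1, a factor of hormone-sensing luminal cells (34.3 CPM of H3K4me3, 8.95 CPM per kb of H3K27me3), and the claudin gene Cldn7 (38.8 and 7.27). The claudin gene Cldn3 (44.0 and 2.02) barely passed in H3K27me3, and the growth factor gene Areg (20.8 and 3.28) barely passed in H3K4me3. Of 14 endothelial markers Flt1 (40 and 2.44), Kdr and Sox18 were bivalent, of 16 fibroblast markers Thy1 was (20.8 and 2.82), and of 16 immune markers none was. Immune marker genes were near 0, with 15 of 16 under 5 CPM and a summed H3K4me3 of 25.9 to 62.0 CPM. Summed H3K4me3 was 1025 to 1140 CPM over the luminal and 173 to 310 over the endothelial list. Over the fibroblast list it was 238 to 329 CPM in Tspan8hi and 303 to 388 in Tspan8- libraries. How far such cells contribute to the bivalent class was not tested.

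Total counts ran from 1472251 to 4740371 per H3K4me3 library and from 2639862 to 6972189 per H3K27me3 library. An effective depth was computed as the percentage of a library's total at which reads drawn independently would miss as many genes as had no read. It was 17.2 to 47.6% in the 4 Tspan8hi and 55.5 to 99.3% in the 4 Tspan8- libraries of H3K4me3, and 31.1 to 64.6% against 72.0 to 79.0% for H3K27me3, so it moved with Tspan8 in both marks. Its part in the Tspan8 results below was not tested. All 860 bivalent genes were kept for the H3K4me3 tests, and 819 for those of H3K27me3 and of the ratio; 38 of the 41 left out are shorter than 300 bp, and low counts removed them.

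Few differences in H3K4me3 at the bivalent genes passed the test. The Tspan8 effect (mean of both Tspan8hi subpopulations minus that of both Tspan8- ones, 4 libraries a side) had a median log2 difference of -0.06 over the 860 genes, with 517 below 0, beside 0.00 over all 19009 genes tested. The Lgr5 effect (Lgr5+ minus Lgr5-) also had a median of -0.06, with 538 below 0 (62.6%, against 49.2% of all). Single libraries moved both medians by as much as their size. For Tspan8 the median was 0.01 (423 below 0) without replicate 2 of Lgr5-Tspan8-, -0.01 without replicate 2 of Lgr5+Tspan8- and -0.10 without replicate 1 of Lgr5+Tspan8-. For Lgr5 it ran from -0.01 (452 below 0, without replicate 2 of Lgr5-Tspan8-) to -0.12 (610 below 0, without replicate 2 of Lgr5+Tspan8-). With edgeR's quasi-likelihood test at a Benjamini-Hochberg adjusted p under 0.05, 0 bivalent genes were called for Tspan8, where 0.0473% of all genes tested were called (0.00526% higher and 0.0421% lower). At an unadjusted p under 0.05 there were 78 (9.07%, against 5.91% of all genes), and DESeq2 also called 0. Without replicate 2 of Lgr5-Tspan8hi the count was 9, and 1 without replicate 1 of Lgr5-Tspan8hi or replicate 1 of Lgr5+Tspan8hi. The genes of smallest p, none past the threshold, were Tbx2, Mafa and Adra2c. At Mafa, an activator of insulin transcription, H3K4me3 was 62.8 and 68.4 CPM for Lgr5+Tspan8hi, 81.9 and 99.2 for Lgr5+Tspan8-, 72.7 and 62.6 for Lgr5-Tspan8hi, and 91.0 and 106 for Lgr5-Tspan8-. All 4 Tspan8hi libraries lay below the 4 Tspan8- libraries, by -0.49 ± 0.14 (log2, SE; edgeR adjusted p = 0.348). At Adra2c, another adrenergic receptor gene, the difference was -0.62 ± 0.19 (edgeR adjusted p = 0.432).

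For Lgr5, 2 bivalent genes had lower H3K4me3 in Lgr5+ cells (0.0421% of all genes tested were called in either direction, 0.0105% as higher and 0.0316% as lower), and 56 (6.5%, against 4.98% of all) had an unadjusted p under 0.05. Those called were Tbx2 and 9430021M05Rik. At Tbx2, a T-box repressor that holds down cell cycle inhibitors (chr11:85832615-85841948, plus strand), H3K4me3 was 62.4 and 39.3 CPM for Lgr5+Tspan8hi, 61.8 and 65.9 for Lgr5+Tspan8-, 86.1 and 62.2 for Lgr5-Tspan8hi, and 116 and 144 for Lgr5-Tspan8-. The double-negative libraries were the highest, and the Lgr5+ and Lgr5- sides overlapped at 62.2 to 65.9 CPM. The log2 difference was -0.79 ± 0.15 (SE; edgeR adjusted p = 0.00318), and it was no longer called without replicate 2 of Lgr5+Tspan8hi (adjusted p = 0.13), replicate 2 of Lgr5-Tspan8- (0.24) or replicate 1 of Lgr5-Tspan8hi (0.074). The start of Tbx2 lies 227 bp from that of 2610027K06Rik, so the H3K4me3 belongs to both. At 9430021M05Rik, which starts 16 bp from Ptprt and is a predicted gene named because it is one of 2, H3K4me3 was 28.9 and 32.8 CPM, 38.2 and 55.7, 69.6 and 55.5, and 60.7 and 78.7 (subpopulations in that order). The highest Lgr5+ library (55.7) and the lowest Lgr5- library (55.5) overlapped, and the difference was -0.80 ± 0.17 (edgeR adjusted p = 0.0393, and 0.056 with DESeq2). It was lost without replicate 1 of Lgr5+Tspan8- (0.96), either Lgr5+Tspan8hi library (0.23 and 0.067), replicate 2 of Lgr5-Tspan8- (1) or replicate 1 of Lgr5-Tspan8hi (0.21).

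In the test of any difference over the 4 subpopulations 2 bivalent genes were called, Tbx2 (edgeR adjusted p = 1.2e-05) and 9430021M05Rik (0.0433), beside 0.0894% of all genes, and 76 (8.84%, against 5.27%) had an unadjusted p under 0.05. No bivalent gene was called for the interaction of Lgr5 and Tspan8 by edgeR (38 at an unadjusted p under 0.05, or 4.42% against 4.20%) or by DESeq2, beside 0% of all genes. The smallest p was that of Tgfbi, which encodes an extracellular matrix protein, with 1.65 ± 0.50 (log2, SE; edgeR adjusted p = 1). Leaving out 1 library moved the small counts. The Lgr5 count was 0 without replicate 2 of Lgr5+Tspan8hi, replicate 2 of Lgr5-Tspan8- or replicate 1 of Lgr5-Tspan8hi, and 1 without replicate 1 of Lgr5+Tspan8- or replicate 1 of Lgr5+Tspan8hi. The any-difference count was 7 without replicate 2 of Lgr5-Tspan8hi, 1 without either Lgr5+Tspan8hi library and 0 without replicate 2 of Lgr5-Tspan8-, and the interaction count was 1 without replicate 2 of Lgr5-Tspan8hi.

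H3K27me3 varied more. Bivalent genes took 7.90 and 8.58% of the H3K27me3 reads for Lgr5+Tspan8hi, 9.01 and 9.55% for Lgr5+Tspan8-, 8.82 and 9.13% for Lgr5-Tspan8hi, and 9.21 and 10.8% for Lgr5-Tspan8-. The double-positive libraries were the lowest and the second double-negative library the highest. The Tspan8hi libraries (8.61% ± 0.524, SD, n = 4) and the Tspan8- libraries (9.64% ± 0.807) overlapped. Of the H3K4me3 reads the bivalent genes took 3.49 and 3.58%, 3.37 and 3.85%, 3.52 and 3.72%, and 3.64 and 4.07% (subpopulations in that order). The double-positive shares lay below the double-negative ones, and the other pairs of subpopulations overlapped.

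**Figure D3:**
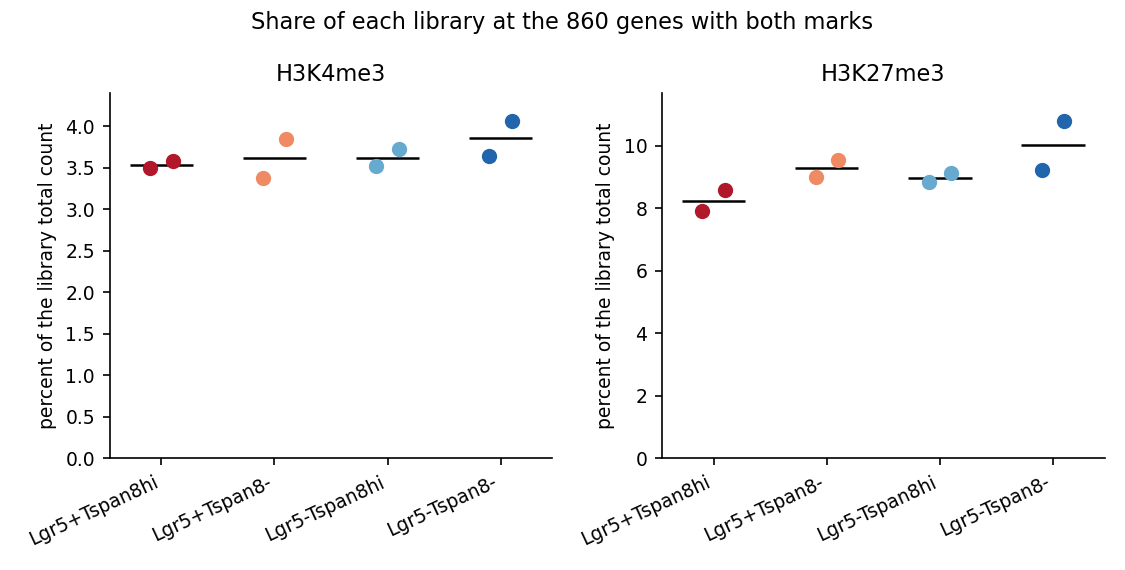
Percent of each library's total count that fell on the 860 bivalent genes (y axis), with 1 point per library, the 4 subpopulations on the x axis and a panel for each mark. For H3K27me3 the Lgr5+Tspan8hi points (7.90 and 8.58%) are the lowest and replicate 2 of Lgr5-Tspan8- (10.8%) is the highest.

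Gene by gene, H3K27me3 was highest in Lgr5-Tspan8- at 565 of the 819 genes tested (69.0%, against 22.0% of all genes tested) by mean CPM, and lowest in Lgr5+Tspan8hi at 469 (57.3%, against 23.2% of all; 385 to 544 without any one library). The first count rests in part on 1 library. Without replicate 2 of Lgr5-Tspan8- it was 379 (46.3%, against 25.5% of all), and without any one of the other libraries 513 to 618. The H3K27me3 threshold was passed in the mean of Lgr5-Tspan8- by 822 of the 860 genes and in that of Lgr5+Tspan8hi by 749. Genes taken through the subpopulation where they were high can add to both counts, and how far was not tested. For Tspan8 the median log2 difference in H3K27me3 over the 819 genes was -0.22, with 696 genes below 0 (85.0%), where all 22099 genes tested had a median of 0.02 and 47.3% below 0. For Lgr5 the median was -0.16 with 689 below 0 (84.1%), beside -0.01 over all genes. Genes with H3K27me3 only had medians of -0.16 and -0.10 in the same comparisons, and genes with H3K4me3 only 0.10 and 0.02. Loess offsets remove a trend of each library with mean H3K27me3 per kb of gene length. That density also chose the genes, so these offsets can take up a shift shared by genes of dense H3K27me3. With them, the medians of the bivalent genes were -0.02 for Tspan8, with 457 below 0, and -0.04 for Lgr5, with 500 below 0. The shift of the class as a whole was thus mostly gone under that scaling. Leaving out 1 library moved the Tspan8 median from -0.14 (without replicate 2 of Lgr5-Tspan8-) to -0.33 (without replicate 1 of Lgr5-Tspan8-), and the Lgr5 median from -0.06 to -0.25 with the same libraries.

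**Figure D4:**
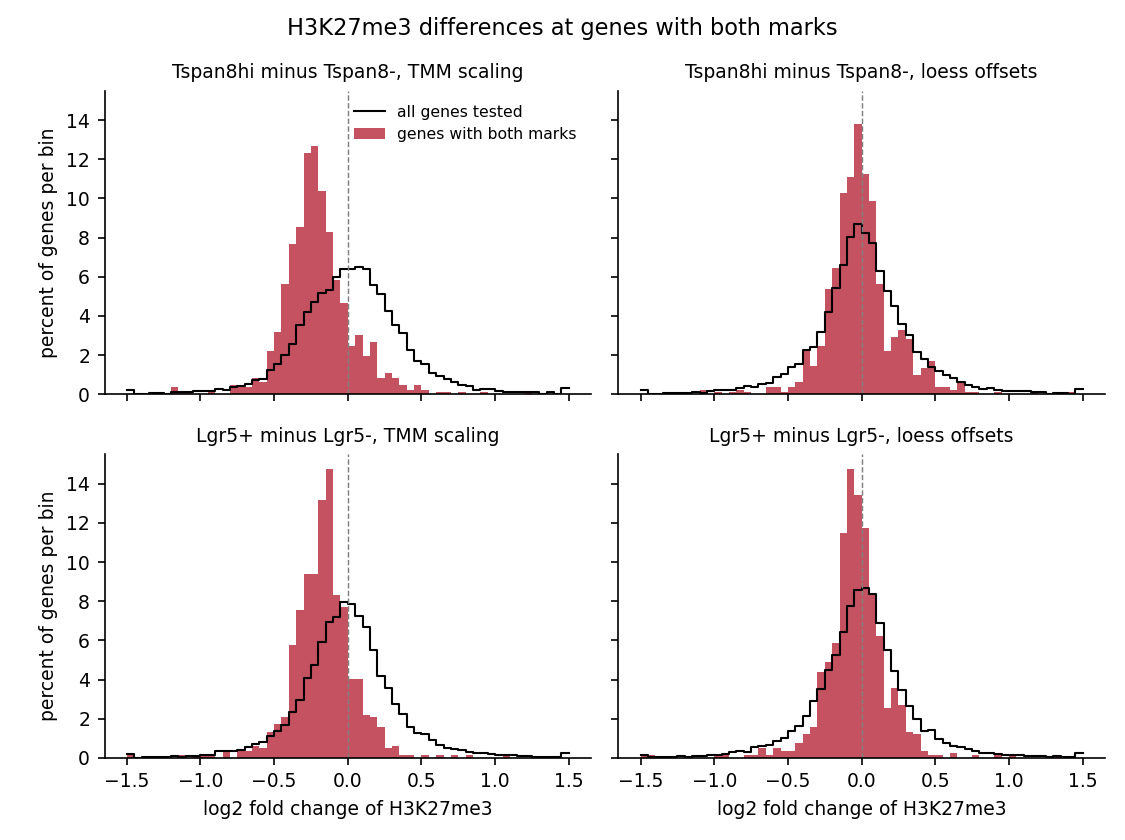
Log2 fold changes of H3K27me3 (x axis, in bins, the outermost holding all values beyond) as a percent of genes (y axis) for the Tspan8 effect (upper row) and the Lgr5 effect (lower row), with bars for the 819 bivalent genes tested and a line for all genes tested. With TMM scaling (left) the bars lie to the left of the line, with medians of -0.22 and -0.16 against 0.02 and -0.01, and with loess offsets (right) they lie near 0, at -0.02 and -0.04.

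For Tspan8, 15 of the 819 genes (1.83%) were called for H3K27me3 by edgeR, 2 higher and 13 lower in Tspan8hi cells, beside 0.335% of all genes tested (0.095% higher and 0.24% lower). At an unadjusted p under 0.05 there were 308 (37.6%), against 12.9% of all genes. The called share of the other classes was 0.249% for H3K27me3 only (6 of 2405) and 0.329% for H3K4me3 only (35 of 10643). The Tspan8hi libraries all lay below the Tspan8- libraries at 54 genes (6.59%, against 2.47% of all genes tested) and all above at 14 (1.71%, against 3.95%). Genes taken through the Tspan8- side, where they were high, can add to the counts of lower genes, called or not overlapping. How far was not tested. Of the 15 called, 12 had sides that did not overlap, the exceptions being Tbx2, Srcin1 and 4931419H13Rik. With the loess offsets 8 genes were called higher and 9 lower, 11 of the 15 among them, and DESeq2 called 1 higher and 73 lower. Every left-out library moved the count by more than 1.5 times. It was 4 and 5 without the first and second Lgr5+Tspan8- library, 4 and 8 without those of Lgr5+Tspan8hi, 236 and 7 without those of Lgr5-Tspan8-, and 9 and 62 without those of Lgr5-Tspan8hi. Cecr2, Plag1 and Tbx2 were called under all 14 alternatives.

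Cecr2, a bromodomain subunit of chromatin remodelling complexes (chr6:120666314-120771191, plus strand), had 176 and 162 CPM of H3K27me3 for Lgr5+Tspan8hi, 301 and 272 for Lgr5+Tspan8-, 187 and 212 for Lgr5-Tspan8hi, and 302 and 333 for Lgr5-Tspan8-. Every Tspan8hi library lay below every Tspan8- library, with a log2 difference of -0.77 ± 0.09 (SE; edgeR adjusted p = 0.000129). Per kb of gene length, the means of both Tspan8hi subpopulations lay below the H3K27me3 threshold and those of both Tspan8- subpopulations above it. Cecr2 was thus taken through the Tspan8- side, where it was high, so its difference is a description. Its H3K4me3 did not pass in any comparison. At Plag1, a zinc-finger factor and growth-promoting oncogene (chr4:3898769-3938430, minus strand), H3K27me3 was 102 and 96.9 CPM, 152 and 141, 126 and 123, and 202 and 186 (subpopulations in that order). The sides did not overlap, and the difference was -0.65 ± 0.10 (edgeR adjusted p = 0.00205).

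Lox encodes lysyl oxidase, which crosslinks collagen and elastin. H3K27me3 at Lox was 26.2 and 24.4 CPM for Lgr5+Tspan8hi, 36.5 and 29.0 for Lgr5+Tspan8-, 17.0 and 24.4 for Lgr5-Tspan8hi, and 44.3 and 42.5 for Lgr5-Tspan8-. The sides did not overlap, with a difference of -0.75 ± 0.16 (edgeR adjusted p = 0.0353, and 0.055 with loess offsets). Lox may have been taken through the Tspan8- side, where it was higher, so its difference is a description. The related Loxl1, chosen after its values were seen, had 64.4 and 71.2, 93.8 and 98.5, 79.5 and 84.6, and 105 and 138 CPM, again without overlap (-0.59 ± 0.12, edgeR adjusted p = 0.0197). Gli1, a transcription factor at the end of the Hedgehog pathway that overlaps Arhgap9, had 31.4 and 23.8, 33.8 and 40.5, 26.5 and 33.5, and 51.2 and 53.9 CPM. Its Tspan8hi libraries were all the lower, the nearest pair being 33.5 and 33.8 CPM, at -0.66 ± 0.15 (edgeR adjusted p = 0.0498, and 0.16 with loess offsets). Calls at Lox, Loxl1 and Gli1 were each lost without either Lgr5+Tspan8- library, either Lgr5+Tspan8hi library, replicate 2 of Lgr5-Tspan8- or replicate 1 of Lgr5-Tspan8hi, with adjusted p up to 0.17 for Lox, 0.19 for Loxl1 and 0.31 for Gli1.

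The other 8 genes lower in Tspan8hi cells are given because the list is short, and all but Srcin1 were chosen after their values were seen. Srcin1, an inhibitor of the kinase Src, had 214 and 213 CPM for Lgr5+Tspan8hi, 276 and 333 for Lgr5+Tspan8-, 279 and 281 for Lgr5-Tspan8hi, and 342 and 424 for Lgr5-Tspan8-. The double-positive libraries were the lowest and the double-negative the highest, and the sides overlapped (-0.53 ± 0.10, edgeR adjusted p = 0.00839). Skap2, an adaptor of Src family kinases, had 347 and 394, 548 and 436, 375 and 414, and 576 and 618 CPM, without overlap (-0.55 ± 0.09, edgeR adjusted p = 0.00402). Pparg, the nuclear receptor that directs fat cell formation, had 233 and 251, 359 and 334, 277 and 285, and 360 and 365 CPM, without overlap (-0.49 ± 0.09, edgeR adjusted p = 0.00653). The remaining 5 were Shank3, a postsynaptic scaffold (-0.53), the secreted neuron-derived factor Ndnf (-0.53), the ubiquitin ligase gene Trim36 (-0.45), Pced1b (-0.51) and 4931419H13Rik (-0.55). Pced1b shares its start with Amigo2. Its mean H3K27me3 of 2.02 CPM per kb was barely above the threshold of 2, so it was taken through the Tspan8- side, where it was higher. Calls were lost at Srcin1 without replicate 2 of Lgr5+Tspan8- (adjusted p = 0.11) or replicate 1 of Lgr5+Tspan8hi (0.061), and at Skap2 and Pparg without replicate 1 of Lgr5+Tspan8- (0.071 and 0.073) or of Lgr5+Tspan8hi (0.057 and 0.097). The last 5 each lost it without 3 to 6 of the libraries.

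The 2 genes higher in Tspan8hi cells were Fzd10 and Tbx2. At Fzd10 (chr5:128601106-128604093, plus strand) H3K27me3 was 13.6 and 22.5 CPM for Lgr5+Tspan8hi, 6.6 and 7.10 for Lgr5+Tspan8-, 22.0 and 15.9 for Lgr5-Tspan8hi, and 11.1 and 6.02 for Lgr5-Tspan8-. All Tspan8hi libraries lay above the Tspan8- libraries, by 1.23 ± 0.25 (log2, SE; edgeR adjusted p = 0.0222). This call was lost without replicate 1 of Lgr5+Tspan8- (adjusted p = 0.16) or 2 (0.16), replicate 2 of Lgr5+Tspan8hi (0.13) or replicate 2 of Lgr5-Tspan8- (0.16). At Tbx2 H3K27me3 was 93.6 and 105 CPM, 81.6 and 72.6, 81.1 and 100, and 33.4 and 27.5 (subpopulations in that order). The double-negative libraries were far the lowest and the other 6 lay together, so the sides overlapped. The Tspan8 difference was 0.93 ± 0.12 (edgeR adjusted p = 0.000356), and the Lgr5 difference 0.73 ± 0.12 (edgeR adjusted p = 0.0111).

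For Lgr5, H3K27me3 calls among the bivalent genes were 2 of 819, Tbx2 higher and Adra1d lower in Lgr5+ cells, beside 0.0407% of all genes tested (0.0136% higher and 0.0272% lower), and 181 (22.1%) had an unadjusted p under 0.05 against 7.19% of all genes. The Lgr5+ libraries all lay below the Lgr5- libraries at 46 genes (5.62%, against 1.62% of all genes tested) and above at 3 (0.366%, against 1.90%). Genes taken through the Lgr5- side, where they were high, can add to the count of 46, and how far was not tested. Adra1d, which encodes the alpha-1D adrenergic receptor (chr2:131545357-131562497, minus strand), had 31.8 and 27 CPM for Lgr5+Tspan8hi, 27 and 25.7 for Lgr5+Tspan8-, 35.6 and 39.8 for Lgr5-Tspan8hi, and 59.5 and 54.2 for Lgr5-Tspan8-. The sides did not overlap, and the difference was -0.74 ± 0.14 (edgeR adjusted p = 0.0481). Per kb of gene length, every Lgr5+ library lay below the threshold of 2 and every Lgr5- library above it. Adra1d was thus taken through the side where it was high, so its difference is a description. The Adra1d call was lost with library totals alone (adjusted p = 0.054), without either Lgr5+Tspan8- library (0.52 and 0.32), without either Lgr5+Tspan8hi library (0.099 and 0.34) and without replicate 2 of Lgr5-Tspan8- (0.10). The Tbx2 call was lost without replicate 1 of Lgr5+Tspan8- (0.27) or 2 (0.064) or replicate 2 of Lgr5+Tspan8hi (0.13). The count of 2 was 39 without replicate 1 of Lgr5-Tspan8-, 5 without replicate 2 of Lgr5-Tspan8hi, 1 without replicate 2 of Lgr5-Tspan8- or replicate 1 of Lgr5+Tspan8hi, and 0 without replicate 2 of Lgr5+Tspan8hi or either Lgr5+Tspan8- library.

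The test of any difference in H3K27me3 called 25 of the 819 genes (3.05%), beside 0.529% of all genes tested, and 289 (35.3%) had an unadjusted p under 0.05 against 11.1% of all. Of the H3K27me3-only genes 0.416% were called, and of the H3K4me3-only genes 0.573%. At 24 of the 25 Lgr5-Tspan8- was the highest subpopulation, and at 20 Lgr5+Tspan8hi was the lowest, the exception to the first being Tbx2. Membership through a subpopulation where a gene was high can add to these counts. The 25 included 4 developmental factors (Tbx2, Foxo6, Gli1 and Id1) and Col27a1, which encodes a fibrillar collagen. Foxo6 and Col27a1 were chosen after their values were seen. At Foxo6, a forkhead factor of the brain, H3K27me3 was 37.2 and 42.0 CPM for Lgr5+Tspan8hi, 44.1 and 35.5 for Lgr5+Tspan8-, 48.1 and 52.5 for Lgr5-Tspan8hi, and 68.9 and 80.9 for Lgr5-Tspan8- (edgeR adjusted p = 0.014), highest in the double-negative libraries. Left-out libraries moved the count to 9 and 9 (Lgr5+Tspan8-), 5 and 11 (Lgr5+Tspan8hi), 199 and 8 (Lgr5-Tspan8-) and 40 and 77 (Lgr5-Tspan8hi), first and second replicate.

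No bivalent gene was called for the H3K27me3 interaction by edgeR, beside 0.00905% of all genes, while 43 (5.25%, against 5.50%) had an unadjusted p under 0.05, and 1 was called by DESeq2. Without replicate 2 of Lgr5-Tspan8hi the count was 4, and without replicate 2 of Lgr5-Tspan8- it was 1. Tbx2 had the smallest p, with an interaction of -1.21 ± 0.24 (log2, SE; edgeR adjusted p = 0.158). It passed with DESeq2 (adjusted p = 0.0145), loess offsets (0.044) and no filter on low counts (0.0332).

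By list, the direction was shared widely and few genes were called. Of the 116 transcription factor genes 104 (89.7%) had their highest H3K27me3 in Lgr5-Tspan8-, beside 413 of 640 (64.5%) bivalent genes in none of the lists and 22.0% of all genes tested. Over all 819 genes this count fell from 565 to 379 without replicate 2 of Lgr5-Tspan8-. How far the counts by list rest on that library was not tested. Homeobox genes had it there in 46 of 50, forkhead genes in 16 of 16, Hox genes in 6 of 6, bHLH genes in 17 of 21 and potassium channel genes in 16 of 18. The BMP list had 8 of 12, the Sox genes 5 of 8 and the endothelial markers 0 of 3. The median log2 difference over the 116 was -0.27 for Tspan8 with 107 below 0, and -0.17 for Lgr5 with 99 below 0. With loess offsets those medians were -0.03 with 66 below 0 and 0.01 with 51 below 0, so the second changed sign. In the list, 4 genes were called for any difference, 2 for Tspan8 (Tbx2 higher and Gli1 lower) and 1 for Lgr5 (Tbx2).

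The ratio of H3K4me3 to H3K27me3 was tested in 1 fit over all 16 libraries. Over the 819 bivalent genes the median log2 difference of the ratio was 0.16 for Tspan8, with 576 above 0, and 0.08 for Lgr5, with 489 above 0, beside -0.05 and -0.01 over the 16354 genes tested. With loess offsets these medians were -0.06 and -0.04, the opposite sign. For Tspan8 the median was 0.07 with library totals and 0.07 with limma, a fit that was scaled by library totals too and not by TMM. For Lgr5 the median was 0.03 without replicate 2 of Lgr5+Tspan8- and 0.04 without replicate 1 of Lgr5-Tspan8hi. Called genes numbered 4 for Tspan8, with Plag1 and Id3 higher and Fzd10 and Tbx2 lower, beside 0.165% of all genes (0.0611% higher and 0.104% lower), and for 129 (15.8%, against 10.1% of all) the unadjusted p was under 0.05. For Lgr5 1 was called, Tbx2 (lower), beside 0.0489% of all genes (0.0367% lower), with 48 (5.86%, against 7.26%) at an unadjusted p under 0.05. For any difference 7 were called, beside 0.245% of all genes, with 85 (10.4%, against 10.6%) at an unadjusted p under 0.05. For the interaction edgeR called 0, beside 0.0122% of all genes, with 28 (3.42%, against 8.30%) at an unadjusted p under 0.05, and DESeq2 called 1. In a limma fit on the log ratio within each numbered sample, which uses the pairing of the marks and has 4 residual degrees of freedom, 0 genes passed in any of these comparisons.

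At Tbx2 the Lgr5 effect had opposite directions in the marks, lower in H3K4me3 and higher in H3K27me3. The ratio of mean H3K4me3 CPM to mean H3K27me3 CPM was 0.511 in Lgr5+Tspan8hi, 0.829 in Lgr5+Tspan8-, 0.817 in Lgr5-Tspan8hi and 4.26 in Lgr5-Tspan8-. The double-negative ratio was the highest. Since the marks come from different immunoprecipitations, only differences of the ratio between subpopulations are read. The log2 difference of the ratio was -1.48 ± 0.23 for Tspan8 (SE; edgeR adjusted p = 0.00218, and 0.448 with limma) and -1.54 ± 0.23 for Lgr5 (edgeR adjusted p = 0.00245, and 0.772 with limma). The Tspan8 call was lost without replicate 2 of Lgr5+Tspan8- (0.065), replicate 2 of Lgr5+Tspan8hi (0.068) or replicate 2 of Lgr5-Tspan8- (0.13), and that for Lgr5 without replicate 1 of Lgr5+Tspan8- (0.11), replicate 2 of Lgr5+Tspan8hi (0.088) or replicate 2 of Lgr5-Tspan8- (0.22).

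At Fzd10 H3K4me3 was 68.3 and 92.6 CPM for Lgr5+Tspan8hi, 116 and 134 for Lgr5+Tspan8-, 82.5 and 117 for Lgr5-Tspan8hi, and 102 and 132 for Lgr5-Tspan8-, which overlapped. The ratio was 4.46, 18.3, 5.28 and 13.7 in that order, lower in both Tspan8hi subpopulations, by -1.62 ± 0.29 (log2, SE; edgeR adjusted p = 0.0122, and 0.448 with limma). Its start lies 419 bp from that of Fzd10os, an antisense gene, with which it shares the H3K4me3. The call was lost without either Lgr5+Tspan8- sample (adjusted p = 0.10 and 0.13), replicate 2 of Lgr5+Tspan8hi (0.079), replicate 2 of Lgr5-Tspan8- (0.31) or replicate 1 of Lgr5-Tspan8hi (0.053). Plag1 differed in the opposite direction. H3K4me3 at Plag1 was 99.7 and 107, 86.1 and 78.1, 98.2 and 93.1, and 72.9 and 61.8 CPM, with every Tspan8hi library above every Tspan8- library, although this difference did not pass alone (0.44 ± 0.13, edgeR adjusted p = 0.489). The ratio of the marks was 1.04, 0.561, 0.770 and 0.347, and its difference 1.11 ± 0.19 (edgeR adjusted p = 0.0055, and 0.486 with limma). It was lost without either Lgr5+Tspan8- sample (0.063 and 0.076), replicate 2 of Lgr5+Tspan8hi (0.079) or replicate 2 of Lgr5-Tspan8- (0.15). The start of Plag1 lies 410 bp from that of Chchd7, so the H3K4me3 of these genes cannot be told apart. Chchd7 had means of 87.5 CPM of H3K4me3 and 0.182 CPM per kb of H3K27me3, beside 87.2 and 3.56 at Plag1.

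Id3 (chr4:136143822-136145392, plus strand) had little H3K27me3, with 2.21 and 1.5 CPM for Lgr5+Tspan8hi, 2.72 and 2.69 for Lgr5+Tspan8-, 2.65 and 2.38 for Lgr5-Tspan8hi, and 9.22 and 7.46 for Lgr5-Tspan8-, from 7 to 52 reads per library. The double-negative libraries stood apart from the other 6, and per kb only they lay above the threshold of 2. Id3 was thus taken through that subpopulation alone, and its differences are a description that supports nothing further. H3K4me3 at Id3 was 117 and 116, 102 and 99.2, 115 and 122, and 76.4 and 79.3 CPM, lowest in the double-negative libraries. The ratio was 62.8, 37.2, 47.2 and 9.34, with a Tspan8 difference of 1.62 ± 0.30 (log2, SE; edgeR adjusted p = 0.0137, and 0.486 with limma) and an any-difference adjusted p of 0.000569, while neither mark passed alone. The Tspan8 call was lost without any one of the 6 samples other than Lgr5-Tspan8hi, with adjusted p from 0.066 to 0.15. Its relative Id1 had 3.57 and 2.06, 1.55 and 1.54, 0.379 and 1.11, and 7.38 and 8.03 CPM of H3K27me3, from 1 to 56 reads, again highest in the double-negative libraries, and its subpopulation means passed the threshold only there and in Lgr5+Tspan8hi (edgeR adjusted p = 0.0277 for any difference in the ratio). Mos, a kinase of oocyte meiosis that neighbours Plag1, had 6.28 and 6.75, 5.44 and 8.45, 7.95 and 8.89, and 21.0 and 17.5 CPM (edgeR adjusted p = 0.0128 for any difference in the ratio). The last of the 7, chosen after its values were seen, was H2bu1-ps (adjusted p = 0.019), a member of a multicopy histone family whose counts are uncertain.

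**Figure D5:**
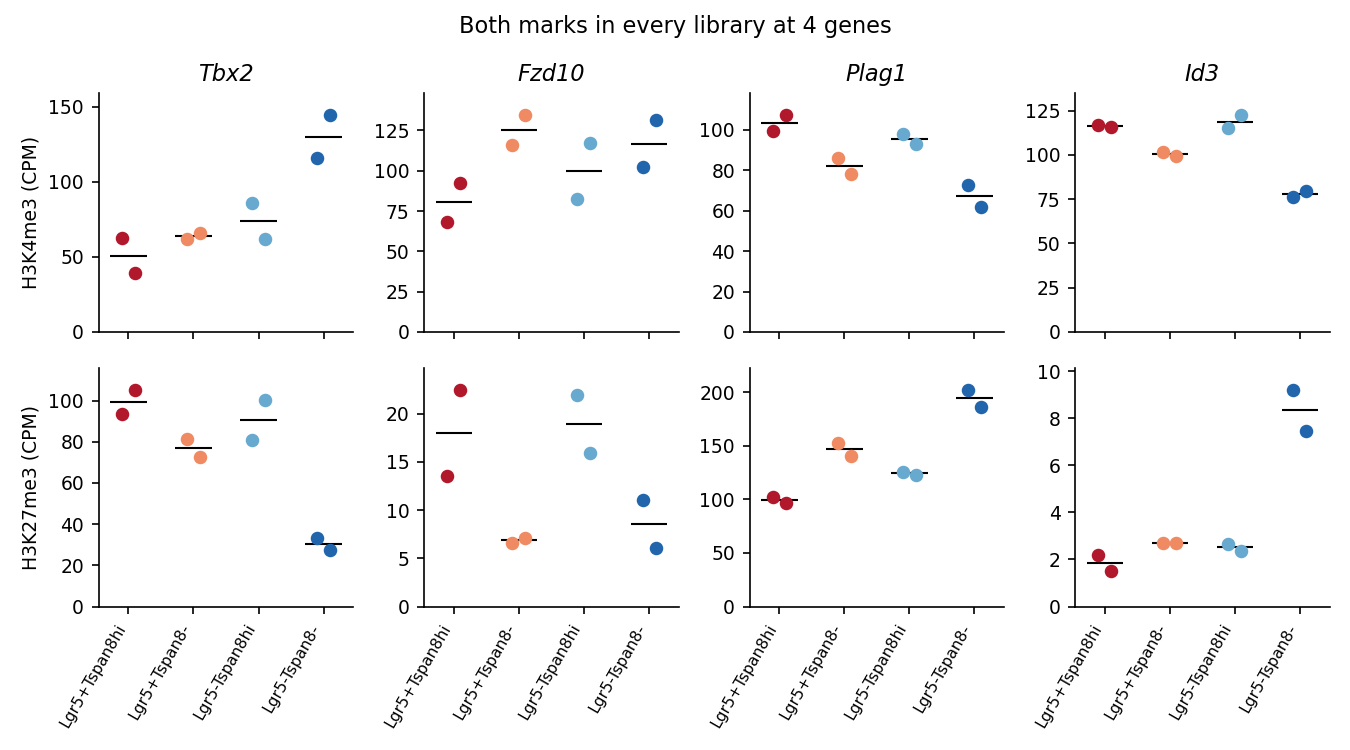
H3K4me3 and H3K27me3 (CPM, linear axes from 0) in each of the 16 libraries at Tbx2, Fzd10, Plag1 and Id3, with 1 point per library and the 4 subpopulations on the x axis. At Tbx2 the Lgr5-Tspan8- points are the highest for H3K4me3 (116 and 144) and the lowest for H3K27me3 (33.4 and 27.5), and at Id3 the reverse holds.

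Ratio calls depended on single libraries. The Tspan8 count of 4 was 1 and 0 without the first and second Lgr5+Tspan8- sample, 0 without replicate 2 of Lgr5+Tspan8hi or replicate 2 of Lgr5-Tspan8-, and 11 without replicate 2 of Lgr5-Tspan8hi. The any-difference count of 7 was 3 and 4 without the Lgr5+Tspan8- samples, 2 without either Lgr5+Tspan8hi sample, 1 and 0 without the Lgr5-Tspan8- samples and 14 without replicate 2 of Lgr5-Tspan8hi. For Lgr5 the count was 0 without replicate 1 of Lgr5+Tspan8-, replicate 2 of Lgr5+Tspan8hi or replicate 2 of Lgr5-Tspan8-, and 2 without replicate 2 of Lgr5-Tspan8hi, where the interaction count was 1. Across the 819 genes, which are not independent, the differences in H3K4me3 and in H3K27me3 had a correlation of -0.160 for Tspan8 and -0.124 for Lgr5, beside -0.011 and -0.003 over 16354 genes. The comparisons use the same libraries of a mark in both, so the Tspan8 and Lgr5 values share their samples.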

How the data were processed

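The labels list 24 samples, of which 16 immunoprecipitated libraries were used. Per the labels' protocols, antibodies against each mark were added to chromatin sonicated to 200 to 400 bp. The authors deposited raw read counts per Entrez gene, and the submitters' processing notes name featureCounts and mm10. What aligner, versions, annotation and counted region were used is not given in the sources used here. Symbols, coordinates and promoters came from RefSeq tables of GRCm38.p6, which matched 25189 of 27080 identifiers and left 1891 unmatched. CPM values were divided by library totals and not by input.

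Each mark was fitted on its 8 libraries with edgeR 4.0.16 in R 4.3.3 (filterByExpr, TMM, a mean per subpopulation, robust quasi-likelihood F test, 4 residual degrees of freedom). The ratio was the mark by subpopulation contrast of a fit over 16 libraries (8 residual degrees of freedom). P-values were adjusted by Benjamini-Hochberg over all genes tested, and a gene was called at an adjusted p under 0.05. Standard errors were obtained from the F statistic. The biological coefficient of variation was 16.0% for H3K4me3, 16.8% for H3K27me3 and 16.4% for the ratio. Counting error adds to it at low counts, and 48 bivalent genes had a mean H3K27me3 count under 10. Replicates differed by more than counting noise (chi-square over its degrees of freedom of 2.90 to 5.43), so none was merged. Alternatives were DESeq2 1.42.0, RLE size factors, library totals, loess offsets, no filter, leaving out each library, a replicate block, other thresholds for membership and, for the ratio, limma 3.58.1 on the log ratio within each numbered sample (0.5 CPM added). The labels give both marks the same sample numbers, which is the source of that pairing; deviations of same-numbered libraries of the 2 marks had correlations of -0.028 to 0.051. The fits were tested on simulated data.

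Members, gene lists and tests were chosen with earlier results of these data known. Genes were named by rule, leaving out predicted genes: the 8 of best standing in both marks, up to 4 higher and 4 lower by size among those called for a Tspan8 or Lgr5 effect (or the 3 of smallest p), up to 4 of smallest adjusted p for other tests, up to 2 per list, and those nearest the thresholds. Promoters were for the first 4 by standing and 4 called genes of largest change.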

Additional observations from a re-analysis of the deposited data

How the results depend on the processing

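With 2 libraries per group and an effective depth that differs by Tspan8, counts of called genes moved widely with single libraries, the cause of which was not tested, and low H3K27me3 counts limit short genes. DESeq2 called 57 bivalent genes for any H3K27me3 difference, 74 for Tspan8 and 9 for Lgr5, 1 for Lgr5 in H3K4me3, and 14, 10 and 3 for the ratio (any, Tspan8 and Lgr5), with 1 interaction each for H3K27me3 and the ratio. With no filter the H3K27me3 counts were 54 (any), 53 (Tspan8), 5 (Lgr5) and 2 (interaction). With library totals the Lgr5 count was 1 and the Tspan8 split 2 higher and 8 lower; with loess offsets the Lgr5 count was 6, the interaction count 1 and the Tspan8 split 8 and 9. In limma on log ratios the ratio counts were 0 for any difference, Tspan8 and Lgr5. With the replicate number as a block the H3K27me3 counts were 104 (any), 113 (Tspan8), 12 (Lgr5) and 1 (interaction, Tbx2 at an adjusted p of 0.0208); replicate differences of the subpopulations had correlations of 0.005 to 0.226, and the labels pair no subpopulations, so this block is not a design feature.

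Leaving out each library gave ranges of 5 to 199 (any), 4 to 236 (Tspan8), 0 to 39 (Lgr5) and 0 to 4 (interaction) for H3K27me3, of 0 to 7, 0 to 9, 0 to 2 and 0 to 1 for H3K4me3, and of 0 to 14, 0 to 11, 0 to 2 and 0 to 1 for the ratio. The number of genes with H3K27me3 highest in Lgr5-Tspan8-, an alternative chosen after seeing the data, ran from 379 to 618. Membership was 370 genes at 40 CPM of H3K4me3, 1887 at 1 and 363 at 4 CPM per kb of H3K27me3, and 543 with both thresholds in each subpopulation. Among 30 results of single genes none changed direction in the settings that gave it a value, which DESeq2 did for 28 and limma for the 6 of the ratio.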
